A study of Mus musculus with 2 samples.

Results

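The sodium-proton exchanger genes Slc9a2, Slc9a3, Slc9a4, Slc9a7, Slc9a8 and Slc9a9 were followed across the cell types of the mouse thick ascending limb (TAL); they are 6 of the 32227 genes counted. The genes were taken by name, and no threshold on their values entered the rule. TAL nuclei were the barcodes with at least 10 counts of Slc12a1, the gene of the apical cotransporter NKCC2 that defines the segment. Among these a nucleus was called macula densa (MD) with at least 3 counts of Nos1 and Pappa2 together, otherwise TAL-β with at least 2 counts of Tmem52b, otherwise TAL-γ with at least 2 counts of Tmem207 and Gpc5 together, and otherwise TAL-α.

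The study mapped cell types along the TAL with single-nucleus RNA sequencing of enriched nuclei. There were 2 libraries, 1 from a superficial strip of kidney labelled Cortex and 1 from the remaining tissue labelled Medulla, so the Medulla library also holds the deeper part of the cortex. Both came from male B6 mice with Slc12a1-CreERT2 and the INTACT nuclear tag (Sun1 fused to superfolder GFP), labelled WT, with an age given as 12 without a unit, after tamoxifen, and were sorted for GFP. The Cre is driven from the Slc12a1 promoter, the tag marks cells that expressed it when tamoxifen was given, no untagged comparison is analysed here, and the number of mice behind each library is not given in the sources used here.

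Sodium-proton exchangers move protons across a membrane in exchange for sodium. In the TAL the apical exchangers NHE2 and NHE3 secrete protons into the tubule fluid, which reabsorbs filtered bicarbonate, and in MD cells apical NHE2 takes part in sensing and cell volume. NHE4 sits in the basolateral membrane, whereas NHE7, NHE8 and NHE9 work mainly in the trans-Golgi network and endosomes, where they set the pH of the lumen, and NHE8 also reaches the apical membrane of proximal tubule cells.

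The cortex library held 5442 barcodes, of which 5218 (95.9%) were TAL nuclei, and the medulla library held 8121, of which 7967 (98.1%) were. No barcode (0) was shared by the libraries. The classes held 2824 TAL-α, 1493 TAL-β, 248 TAL-γ and 653 MD nuclei in the cortex library and 3776, 571, 3542 and 78 in the medulla library, with a median of 1883 to 2780 counts per nucleus. Of the TAL-β nuclei, 475 of 1493 in cortex and 359 of 571 in medulla also met the TAL-γ minimum. They are TAL-β because Tmem52b is read first, so the rule does not sharply separate these 2 classes. The MD name fitted a marker: Robo2 stood at 4789 CPM (counts per 1000000 counts of the group) in cortical and 5795 CPM in medullary MD nuclei, against at most 475 CPM in any other class. The 5 TAL-γ check markers did not all set medullary TAL-γ apart from TAL-β. Ano4 (714 against 208 CPM), Kcnt1 (176 against 51.2 CPM) and Cldn10 (211 against 55.8 CPM) were higher in TAL-γ. Rbfox1 (863 against 1129 CPM) and Kcnj10 (109 against 170 CPM) were higher in TAL-β. Set against medullary TAL-α, Ano4 (714 against 250 CPM), Rbfox1 (863 against 217 CPM), Kcnj10 (109 against 13.2 CPM) and Kcnt1 (176 against 120 CPM) were higher in TAL-γ. Cldn10 (211 against 242 CPM) was lower. Cortical TAL-γ was mixed, with Ano4 at 94.5 CPM against 714 CPM in medullary TAL-γ and the TAL-β marker Pth1r at 455 CPM against 42.0 CPM. Transcripts of proximal tubule differed between the libraries: all 10 genes of a proximal tubule list were detected in every class, their summed level was 2176 to 4036 CPM in the 4 cortical classes and 506 to 762 CPM in the 4 medullary classes, and 16.3% of cortical against 2.26% of medullary TAL nuclei had at least 3 such counts.

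A level below is the sum of a gene's counts over the nuclei of a class, as CPM of all their counts, with an exact Poisson 95% interval. With 1 library per region there is no test and no replicate error, the intervals cover counting error only, and region and library cannot be told apart. A ratio between groups has a conditional binomial 95% interval. Levels are not compared between genes, because nuclear counts depend on gene structure as well as on transcription. Between them the genes gave 22810 counts for Slc9a3, 3954 for Slc9a2, 2284 for Slc9a8, 652 for Slc9a7, 360 for Slc9a9 and 24 for Slc9a4 over the 13185 TAL nuclei, so precision differs widely.

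Positions are on GRCm39. Slc9a2 (ENSMUSG00000026062) spans chr1:40719734-40808433 and Slc9a4 (ENSMUSG00000026065) spans chr1:40619131-40670186, both on the plus strand, with 49547 bases and 0 genes between them. Slc9a3 (ENSMUSG00000036123) spans chr13:74269360-74317561 on the plus strand with 16 exons in its canonical transcript, and Slc9a8 (ENSMUSG00000039463) spans chr2:167263472-167318922 on the plus strand with 17. Slc9a7 (ENSMUSG00000037341) spans chrX:19965087-20158231 on the minus strand with 17 exons, and Slc9a9 (ENSMUSG00000031129) spans chr9:94551669-95112500 on the plus strand with 16 exons over 560832 bases. Slc9a3 overlaps Exoc3 and Slc9a7 overlaps Chst7, each on the opposite strand, so their reads can be told apart only if strand was used in counting, which is not given in the sources used here.

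The sequences before the outermost annotated starts of Slc9a3 and Slc9a7 are shown because these genes had opposite patterns across the classes. Each run is the 250 bases before the gene, on GRCm39 with starts from GENCODE M39, 5′ to 3′ on the strand of the gene, and lies in 0 annotated genes. Capitals mark matches to 5 motifs searched on both strands: the GC box GGGCGG, the CCAAT box CCAAT, the TATA box TATAAA, the nuclear receptor half-site AAGGTCA and the AP-2 type motif GCCNNNGGC.
Slc9a3, chr13:74269110-74269359, plus strand: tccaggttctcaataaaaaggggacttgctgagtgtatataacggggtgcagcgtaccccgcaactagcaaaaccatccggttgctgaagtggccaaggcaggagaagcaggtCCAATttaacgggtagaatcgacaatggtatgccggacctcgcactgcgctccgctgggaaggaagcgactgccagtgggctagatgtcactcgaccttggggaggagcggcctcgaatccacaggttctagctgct
Slc9a7, chrX:20158232-20158481, minus strand: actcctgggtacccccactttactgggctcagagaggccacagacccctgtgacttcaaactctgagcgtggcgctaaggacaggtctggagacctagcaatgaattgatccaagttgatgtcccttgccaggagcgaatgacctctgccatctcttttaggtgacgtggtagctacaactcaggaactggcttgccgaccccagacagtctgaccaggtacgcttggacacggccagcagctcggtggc
The Slc9a3 window held 1 CCAAT box, 137 bases before the start, and the Slc9a7 window held none of the motifs. Among windows of the same length before 21757 protein-coding genes, 36.1% held a CCAAT box, 29.9% a GC box, 12.5% a TATA box, 11.4% the AP-2 type motif and 4.35% the half-site, and the median GC content was 51.2%, against 55.6% for Slc9a3 and 56.4% for Slc9a7. Windows were made only for exchanger genes in a separate list of start sequences. It had no entry for Slc9a2 and Slc9a4, although both have annotated positions.

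Slc9a2, which encodes NHE2, was highest in MD nuclei of both libraries and lowest in medullary TAL-γ. Its level in the cortex library was 404 CPM (374 to 435) in MD, 176 CPM (167 to 185) in TAL-α, 140 CPM (130 to 151) in TAL-β and 98.2 CPM (78.0 to 122) in TAL-γ. In the medulla library it was 355 CPM (271 to 458) in MD, 106 CPM (91.7 to 123) in TAL-β, 66.6 CPM (61.5 to 72.1) in TAL-α and 21.3 CPM (18.4 to 24.5) in TAL-γ. Both MD groups stood above every other group, and the 3 remaining cortical classes stood above medullary TAL-α and TAL-γ. In the order of all 8 groups only 2 pairs of neighbours had a ratio interval that held 1, the MD groups of both libraries (1.14, 0.870 to 1.51) and medullary TAL-β with cortical TAL-γ (1.08, 0.831 to 1.43).

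**Figure D1:**
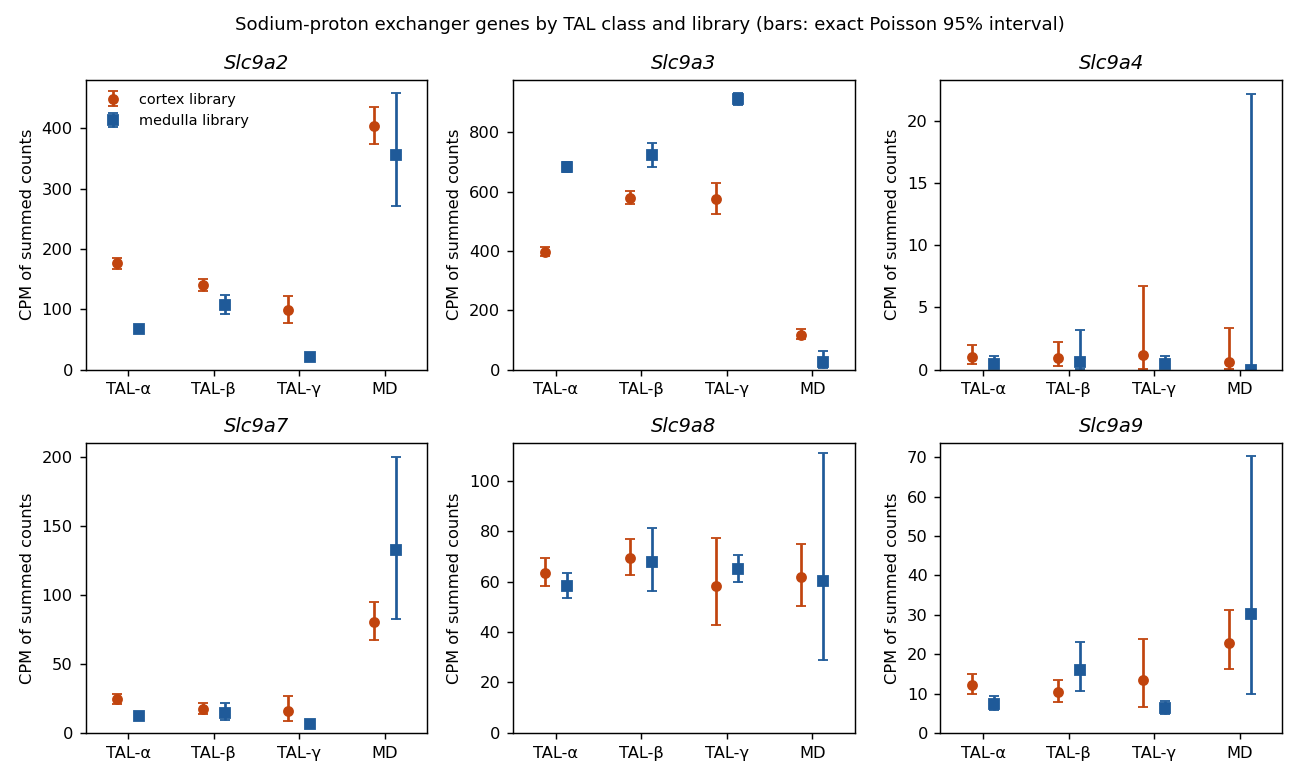
Level of each exchanger gene as CPM of summed counts (y axes, linear, from 0, each with its own range) in TAL-α, TAL-β, TAL-γ and MD nuclei (x axes) of the cortex library (circles) and the medulla library (squares), with exact Poisson 95% intervals. Slc9a2 and Slc9a7 are highest in MD, Slc9a3 is lowest in MD and highest in medullary TAL-γ at 912 CPM, and the intervals of Slc9a8 overlap in all groups.

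Within the cortex library, Slc9a2 was 2.29-fold higher in MD than in TAL-α (interval 2.09 to 2.52) and 2.88-fold higher than in TAL-β (2.59 to 3.20). Within the medulla library it was 5.33-fold higher in MD than in TAL-α (4.01 to 6.97), on 59 counts in MD. These ratios are against TAL-α and TAL-β nuclei of all positions along the TAL. The share of nuclei with a count followed the same order, at 56.4% of cortical and 44.9% of medullary MD nuclei, 33.6% of cortical and 12.2% of medullary TAL-α and 4.69% of medullary TAL-γ. When each nucleus was thinned to 1000 counts, which left out 18 shallower medullary TAL-α and 5 TAL-γ nuclei, these shares were 35.1%, 25.6%, 16.9%, 5.30% and 1.95%. MD nuclei were the shallowest class and still had the largest share. In barcodes with at most 2 Slc12a1 counts and proximal tubule markers, read here as background, it was 19.3% of 88 in cortex (median depth 3436 counts) and 10.1% of 99 in medulla (4587 counts), or 5.68% and 1.01% after thinning. The share in medullary TAL-γ was below this background before thinning and within its counting error after it, and its level of 21.3 CPM was below the 23.8 CPM (11.9 to 42.7) of the same barcodes, so Slc9a2 there is not read as expression. The share in medullary TAL-α also lay within the counting error of the background, both before thinning (4.95% to 17.8%) and after it (0.0256% to 5.50%). The share alone thus does not set this class apart from those barcodes, which were deeper before thinning (median 4587 against 2404 counts). The level of 66.6 CPM in medullary TAL-α was above the interval of those barcodes.

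Between the libraries, Slc9a2 in TAL-α was 2.64-fold higher in cortex than in medulla (2.40 to 2.91). In TAL-β the ratio was 1.32-fold in the same direction (1.12 to 1.56), and in MD the interval held 1. The median ratio of medulla to cortex over all genes with at least 20 counts was 0.935 in TAL-α, 0.937 in TAL-β and 0.953 in MD. Barcodes outside the filtered set with at most 100 counts, which mostly hold free RNA, had Slc9a2 at 167 CPM in the cortex and 52.0 CPM in the medulla library. Free RNA thus differed between the libraries in the same direction as TAL-α. In cortex it was also above the levels of TAL-β (140 CPM) and TAL-γ (98.2 CPM). Its interval there (152 to 183) overlapped that of TAL-α (176 CPM, 167 to 185). The part of free RNA in the difference and in these levels was not tested. Without the nuclei with at least 3 proximal tubule counts, Slc9a2 in TAL-α was 199 CPM in cortex and 66.7 CPM in medulla.

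The 2 non-MD classes found in both libraries in number did not keep 1 order for Slc9a2. TAL-β stood at 0.798 of TAL-α in cortex (0.728 to 0.873) and at 1.60 times TAL-α in medulla (1.35 to 1.88). Medullary TAL-γ was below both classes, at a level not above background, so no fold is given against it.

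To see how these levels follow position inside 1 library, nuclei of TAL-α, TAL-β and TAL-γ were ordered by the share of cortex-list counts among their counts of 13 cortical and 13 medullary TAL genes. The lists were chosen by the study on these libraries, hold no exchanger gene, and include the TAL-β marker Pth1r. In medullary TAL-α, Slc9a2 was 15.7 CPM where that share was below 0.1, then 58.6, 103 and 140 CPM in the bins from 0.1, 0.3 and 0.5, and 214 CPM at 0.7 and above. In cortical TAL-α the same bins had 15.4 (1 count), 74.4, 102, 157 and 227 CPM. The level thus climbed from the medullary to the cortical end in both libraries. MD nuclei were not placed on this axis, and no ratio of MD to TAL-α at a matched position was computed. MD levels of 404 CPM in cortex and 355 CPM in medulla stood against 227 and 214 CPM in the most cortical bin of TAL-α. That bin was thus closer to MD than TAL-α of all positions was. The most medullary bin of medullary TAL-α lay below the 23.8 CPM of the proximal tubule-marked barcodes and the 52.0 CPM of free RNA in that library, so no ratio of the ends is given.

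At matched bins no difference between the libraries was detectable for Slc9a2. The ratio of medulla to cortex lay between 0.787 and 1.02 in the 5 bins of TAL-α, between 1.03 and 1.28 in 4 bins of TAL-β and between 0.647 and 1.64 in 4 bins of TAL-γ, and all 13 intervals held 1. Precision differed widely. The most medullary bins of TAL-α (0.177 to 40.8) and TAL-γ (0.186 to 42.2) had 1 cortical count each. The most cortical bin of TAL-α had 0.794 to 1.11. What part position has in the library difference was not tested. The makeup of the libraries differed along the same axis: 51.0% of cortical but 8.26% of medullary TAL-α nuclei were in the most cortical bin, and 1.10% against 50.9% in the most medullary bin. In medulla the ratio of TAL-β to TAL-α was 0.836 to 1.09 within the 5 bins, all intervals holding 1, and that of TAL-γ to TAL-α was 0.458 to 0.978 within 4 bins, all holding 1. Of medullary TAL-γ nuclei, 87.9% fell in the most medullary bin, against 13.8% of medullary TAL-β. In cortex the ratio of TAL-β to TAL-α was 0.733 to 0.777 in 4 bins, of which 2 intervals held 1.

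**Figure D2:**
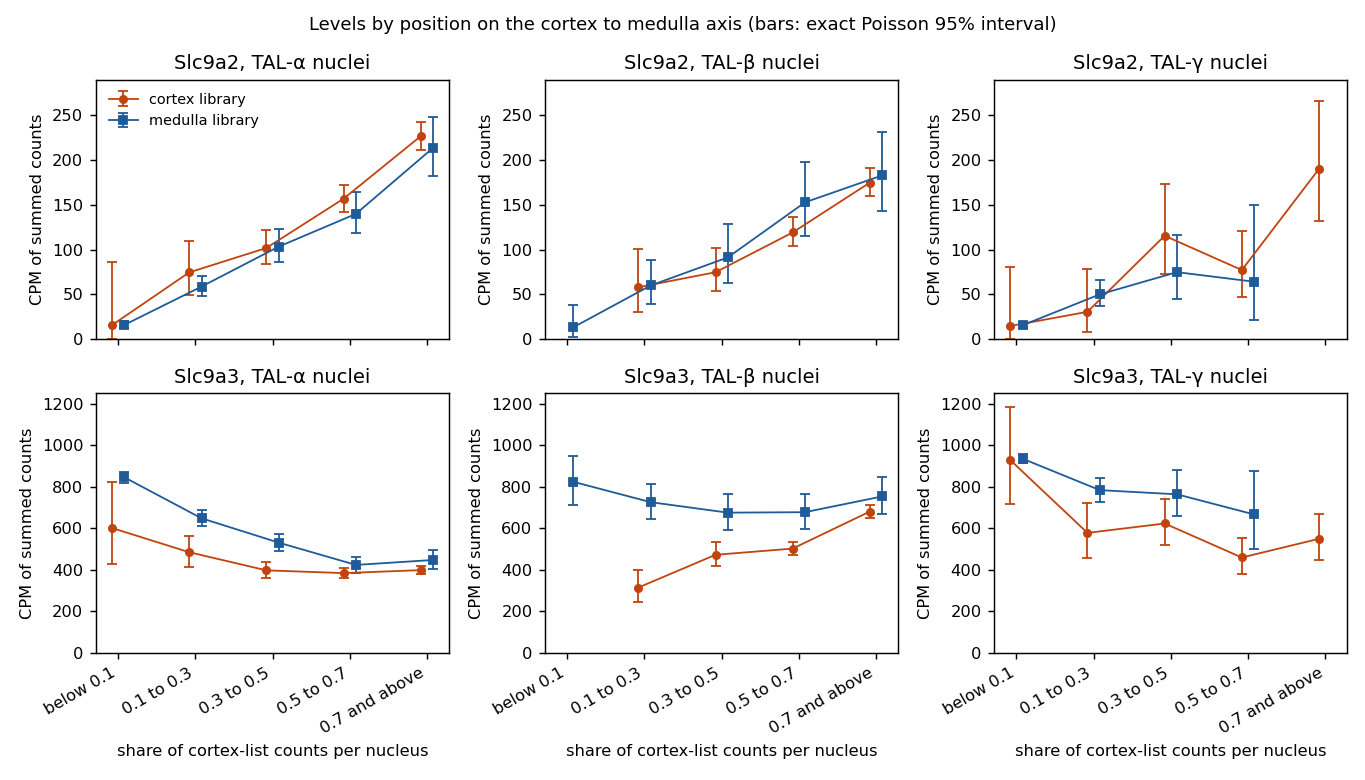
Levels of Slc9a2 (top) and Slc9a3 (bottom) as CPM of summed counts (y axes, linear, from 0) by the share of cortex-list counts per nucleus (x axes, most medullary bin on the left), for TAL-α, TAL-β and TAL-γ nuclei of the cortex library (circles) and the medulla library (squares), with exact Poisson 95% intervals and bins of at least 20 nuclei. Slc9a2 climbs along the axis in TAL-α and TAL-β of both libraries and the libraries overlap within bins, whereas Slc9a3 declines along it in TAL-α and TAL-γ and climbs in cortical TAL-β.

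Slc9a3, which encodes NHE3, had the reverse order: highest in medullary TAL-γ and lowest in MD. Its level was 912 CPM (892 to 932) in TAL-γ, 723 CPM (684 to 764) in TAL-β, 683 CPM (666 to 700) in TAL-α and 24.1 CPM (6.57 to 61.7) in MD of the medulla library. In the cortex library it was 580 CPM (560 to 601) in TAL-β, 576 CPM (525 to 630) in TAL-γ, 398 CPM (384 to 412) in TAL-α and 118 CPM (102 to 135) in MD. Over all nuclei, all 3 medullary classes other than MD stood above all cortical classes. Without nuclei with at least 3 proximal tubule counts, medullary TAL-α was at 699 CPM (682 to 717). The intervals of cortical TAL-γ (685 CPM, 615 to 761) and TAL-β (664 CPM, 636 to 693) then overlapped it. Over all nuclei of a class, the neighbours in the order that could not be separated were medullary TAL-β with TAL-α (1.06, 0.997 to 1.13) and cortical TAL-β with TAL-γ (1.01, 0.915 to 1.11).

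In the medulla library Slc9a3 in TAL-γ was 1.33 times TAL-α (1.29 to 1.38) and 1.26 times TAL-β (1.19 to 1.34). In the cortex library TAL-β was 1.46 times TAL-α over all nuclei (1.39 to 1.53). Between the libraries, medulla was 1.72 times cortex in TAL-α (1.65 to 1.79) and 1.25 times in TAL-β (1.17 to 1.33), the latter at 1.07 with an interval that held 1 (0.992 to 1.15) without nuclei that had at least 3 counts of any other cell type list. These differences were below 2-fold but beyond counting error, as Slc9a3 had the most counts of the 6 genes. Free RNA moved the same way, at 407 CPM in the cortex and 712 CPM in the medulla library. TAL-α was near these values, at 398 and 683 CPM, and the part of free RNA was not tested.

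Along the axis Slc9a3 declined toward the cortical end in TAL-α, from 845 to 446 CPM in medulla (1.89-fold, 1.70 to 2.12) and from 601 to 398 CPM in cortex (1.51-fold, 1.07 to 2.08). In cortical TAL-β it went the other way, from 313 CPM at 0.1 to 0.3 to 680 CPM at 0.7 and above (2.17-fold, 1.69 to 2.82). Without nuclei with at least 3 proximal tubule counts, these cortical TAL-β ends were at 418 and 710 CPM (1.70-fold, 1.20 to 2.48). In medullary TAL-β the ends were at 823 and 753 CPM with a ratio interval that held 1. TAL-γ declined toward the cortical end in cortex (1.69-fold, 1.22 to 2.34) and in medulla (1.40-fold, 1.07 to 1.88). Slc9a3 thus had no single direction along the axis over the classes, with cortical TAL-β the only group that climbed. The ratio of TAL-β to TAL-α changed along it too. In cortex it was 0.648 (0.479 to 0.867) at 0.1 to 0.3, where TAL-β was the lower class, and 1.71 (1.60 to 1.84) at 0.7 and above, with 0 of 4 intervals holding 1. The value of 0.648 rested on 39 TAL-β nuclei with 65 counts, and it includes nuclei with proximal tubule counts. In medulla it was 1.27 (1.09 to 1.48), 1.60 (1.37 to 1.87) and 1.69 (1.44 to 1.98) in the 3 most cortical bins, while the intervals of the other 2 bins held 1. Within bins TAL-γ of medulla stayed 1.11 to 1.58 times TAL-α in 4 of 4 bins, with 0 intervals holding 1, and medullary TAL-α stayed 1.10 to 1.41 times cortical TAL-α, with 2 of 5 intervals holding 1. Medullary TAL-γ nuclei with a Tmem207 count had 964 CPM of Slc9a3 (939 to 990) and those called on Gpc5 alone had 814 CPM (783 to 846).

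In MD, Slc9a3 was 3.38-fold lower than in cortical TAL-α (2.93 to 3.93) and 4.94-fold lower than in cortical TAL-β (4.27 to 5.73). In medulla it was at 0.0353 of TAL-α (0.00961 to 0.0904), on 4 counts in 78 nuclei, of which 3 were in the 5 nuclei with high doublet scores. That ratio was 0.0100 without doublets and 0.123 with MD called from 2 counts of Nos1 and Pappa2, so its size is not well set, whereas it was below 0.5 under all alternatives. The share of nuclei with a count was 12.4% in cortical and 3.85% in medullary MD, against 57.0% to 80.8% in the other classes, and after thinning it was 3.68% and 1.28% against 31.1% to 55.2%. Both MD groups were thus apart from all other groups. In barcodes with at most 2 Slc12a1 counts, Slc9a3 had 0 counts in the 38 cortical barcodes with distal convoluted tubule markers (median depth 2270 counts), a count that allows a share of nuclei with a count of up to 7.89% (3 counts of the total), and it was at 195 CPM (155 to 243) in 88 cortical barcodes with proximal tubule markers, a segment in which NHE3 is the main apical exchanger.

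The cortical MD value rested in part on a few deep nuclei. Scrublet, a doublet caller, marked 60 of the 653 cortical MD nuclei; these had a median depth of 4623 counts and held 128 of the 196 Slc9a3 counts, 364 CPM (304 to 433). The other 593 nuclei had a median depth of 1837 counts and 51.7 CPM (40.1 to 65.5). Without all nuclei that Scrublet marked the ratio of MD to TAL-α went from 0.296 to 0.129, and without nuclei with proximal tubule counts it was 0.199, with cortical MD at 83.4 CPM. In each case Slc9a3 was lower in MD, by more than the 3.38-fold above.

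The MD boundary was read along its own markers in the cortex library. Nuclei with 0, 1 and 2 counts of Nos1 and Pappa2 had Slc9a2 at 147, 245 and 365 CPM, and those with 3 to 4, 5 to 9 and 10 or more had 348, 420 and 442 CPM. The same nuclei had Slc9a3 at 491, 385 and 153 CPM and then 149, 114 and 88.0 CPM. Slc9a7 stood at 19.2, 28.7 and 79.4 CPM and then at 74.6, 65.9 and 107 CPM. For all 3 genes the 133 nuclei with 2 counts, just outside the MD rule, were closer to MD than to nuclei without such counts.

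**Figure D3:**
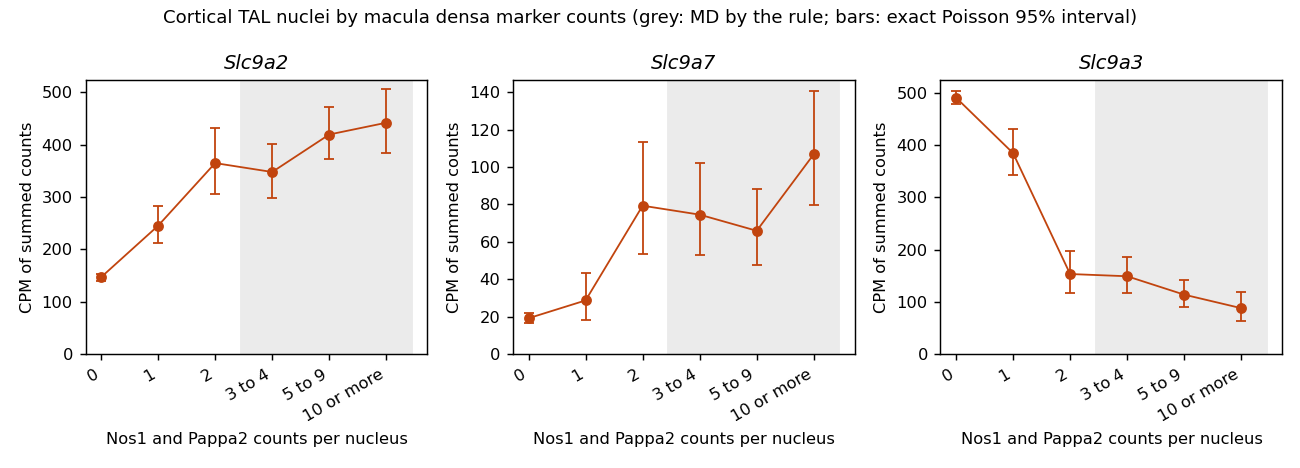
Levels of Slc9a2, Slc9a7 and Slc9a3 as CPM of summed counts (y axes, linear, from 0) in cortical TAL nuclei grouped by their counts of Nos1 and Pappa2 (x axes), with exact Poisson 95% intervals; grey marks nuclei called MD. Slc9a2 goes from 147 to 442 CPM and Slc9a7 from 19.2 to 107 CPM between the first and last group, while Slc9a3 goes from 491 to 88.0 CPM, and most of the change lies between 0 and 2 counts.

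Slc9a2 and Slc9a3 were compared within single nuclei. Slc9a2 without Slc9a3 was found in 48.1% of cortical and 43.6% of medullary MD nuclei, in 15.3% of cortical TAL-α and in 0.762% of medullary TAL-γ. Slc9a3 without Slc9a2 was found in 76.9% of medullary TAL-γ, 38.6% of cortical TAL-α and 4.13% of cortical MD. MD was thus the class in which Slc9a2 stood most often alone, and the other 6 groups had more nuclei with Slc9a3 alone. Slc9a3 had 22810 counts in TAL nuclei against 3954 for Slc9a2, so these shares do not rank the genes against each other. Of the 81 cortical MD nuclei with an Slc9a3 count, 45 were among the 60 that Scrublet marked. Both genes were detected in 18.3% of cortical TAL-α and 26.6% of cortical TAL-β, where the product of the single shares was 19.2% and 24.8%, and in 8.13% of medullary TAL-α, where it was 8.79%. Detection of the genes in the same nucleus was near the product of their shares in these 3 groups; such shares follow depth, which both genes share.

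**Figure D4:**
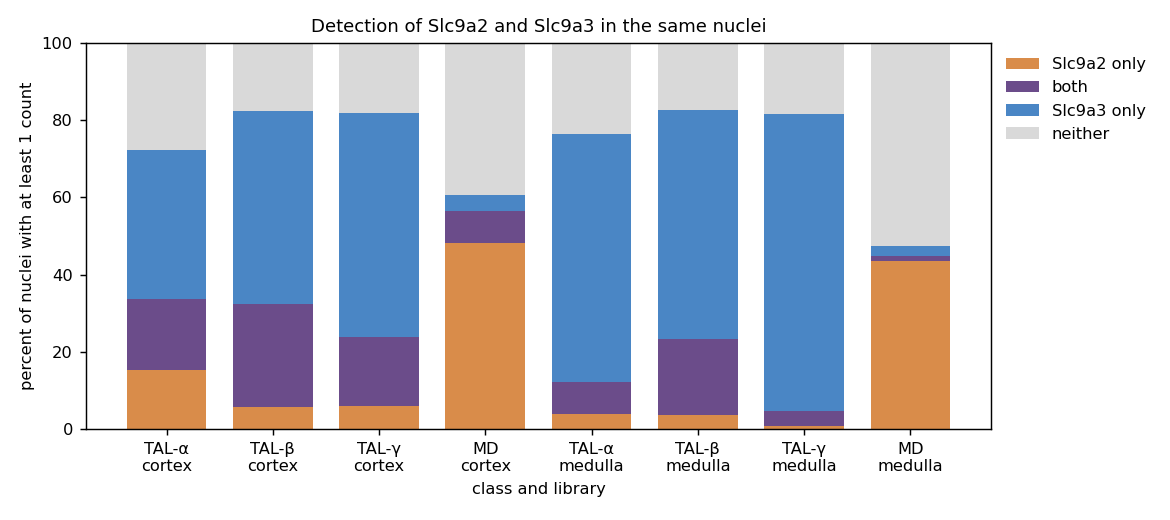
Percent of nuclei (y axis, 0 to 100) with at least 1 count of Slc9a2 only, both genes, Slc9a3 only or neither, in the 8 groups of class and library (x axis). Slc9a2 alone takes 48.1% and 43.6% of the MD bars, and Slc9a3 alone is the largest part of every other bar.

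Slc9a4, which encodes the basolateral NHE4, was barely detected. Its counts were 8 in TAL-α, 5 in TAL-β, 1 in TAL-γ and 1 in MD of the cortex library and 4, 1, 4 and 0 in the medulla library. No group exceeded 1.21 CPM, free RNA was at 1.13 and 1.46 CPM, and the 0 of 78 medullary MD nuclei allow a share of nuclei with a count of up to 3.85% (3 counts of the total), which does not limit the share that expresses the gene. Differences between groups were not detectable at this depth.

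Slc9a7, which encodes the trans-Golgi exchanger NHE7, followed Slc9a2 in being highest in MD. Its level was 80.4 CPM (67.3 to 95.2) in MD, 24.5 CPM (21.2 to 28.2) in TAL-α, 17.4 CPM (14.0 to 21.4) in TAL-β and 15.8 CPM (8.39 to 26.9) in TAL-γ of the cortex library. In the medulla library it was 133 CPM (83.0 to 201) in MD on 22 counts, 14.8 CPM (9.67 to 21.7) in TAL-β, 12.0 CPM (9.93 to 14.5) in TAL-α and 6.40 CPM (4.86 to 8.28) in TAL-γ. The MD groups did not overlap with any other group. MD was 3.28-fold higher than TAL-α in cortex (2.61 to 4.11), 4.62-fold higher than TAL-β (3.51 to 6.09) and 11.0-fold higher than TAL-α in medulla (6.63 to 17.5). Medullary TAL-α lay within the interval of the proximal tubule-marked barcodes of that library (10.8 CPM, 3.52 to 25.3). The 11.0-fold is thus against a level not above background.

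Outside MD, Slc9a7 in TAL-α was 2.03-fold higher in cortex than in medulla (1.60 to 2.59), a ratio of medulla to cortex of 0.492 that was 0.545 with MD called from 2 counts. Within the 5 bins of the axis that ratio in TAL-α was 0.524 to 1.61, and all 5 intervals held 1. Free RNA moved the same way, at 20.7 CPM in the cortex and 7.78 CPM in the medulla library, and its part was not tested. In medulla TAL-γ was 2.31-fold lower than TAL-β (1.40 to 3.73), but with TAL-β called from 1 Tmem52b count the ratio of 0.433 became 0.682 and its interval held 1 (0.427 to 1.11). Medullary TAL-γ, at 6.40 CPM, was not above the proximal tubule-marked barcodes (10.8 CPM, 3.52 to 25.3) or free RNA (7.78 CPM). Medullary TAL-β, at 14.8 CPM, was within the interval of those barcodes, so the size of this ratio is not well set. In the order of levels the 3 pairs of neighbours from cortical TAL-β down to medullary TAL-α could not be separated, and medullary TAL-γ was lowest. The share of nuclei with a count was 16.8% in cortical and 19.2% in medullary MD and 1.27% to 5.49% elsewhere, and in the barcodes with proximal tubule markers it was 3.41% and 5.05%. The shares outside MD are thus near background, whereas those in MD are above it. Among the 593 cortical MD nuclei that Scrublet did not mark it was 89.7 CPM, and without nuclei with proximal tubule counts cortical MD was at 96.8 CPM.

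Slc9a8, which encodes NHE8, showed no detectable difference across the TAL over all nuclei of the classes. It was 63.5 CPM in TAL-α, 69.4 CPM in TAL-β, 58.2 CPM in TAL-γ and 61.8 CPM in MD of the cortex library, and 58.2, 67.7, 65.0 and 60.2 CPM in the same classes of the medulla library. All intervals of neighbours in this order held 1, and the ratios of the 10 comparisons lay between 0.890 and 1.16 with intervals that all held 1. The tightest was medulla to cortex in TAL-α at 0.916 (0.811 to 1.04), and the widest was MD to TAL-α in medulla at 1.03 (0.493 to 1.92), where MD had 10 counts. The ratio of TAL-γ to TAL-α in medulla had an interval just above 1 under some alternatives, at 1.15 (1.01 to 1.30) without doublets. Without nuclei with at least 3 proximal tubule counts, Slc9a8 was 49.1 CPM in TAL-α and 52.2 CPM in TAL-β of the cortex library. In the medulla library the same classes then had 53.4 and 64.1 CPM. Free RNA held Slc9a8 at 66.2 CPM in the cortex and 76.3 CPM in the medulla library, near or above the levels of the classes, and its part in these values was not tested.

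Slc9a9, which encodes the endosomal NHE9, was low, with its highest levels in MD. Its level was 22.8 CPM (16.1 to 31.3) in cortical and 30.1 CPM (9.78 to 70.3) in medullary MD, the latter on 5 counts, and 6.29 to 15.9 CPM in the other groups. It was 1.87-fold higher in MD than in TAL-α in cortex (1.25 to 2.75) and 2.21-fold higher than in TAL-β (1.42 to 3.40), although no neighbours in its order could be separated. The latter ratio was 1.66 with TAL-β called from 1 Tmem52b count and 5.56 without nuclei that had at least 3 counts of any other cell type list. Free RNA had 43.6 CPM of it in the cortex library, above all 4 classes there, and 27.2 CPM in the medulla library, and its part in these values was not tested. Medullary TAL-β was 2.14-fold higher than TAL-α (1.33 to 3.35), but 1 nucleus held 11 of its 28 counts, and without the nucleus with the most counts in each class the ratio was 1.44 (0.791 to 2.50). In the same way MD to TAL-α in medulla went from 4.04 (1.27 to 9.87) to 3.63 (0.959 to 9.76), and TAL-γ to TAL-β went from 0.395 to 0.570 (0.323 to 1.05).

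**Figure D5:**
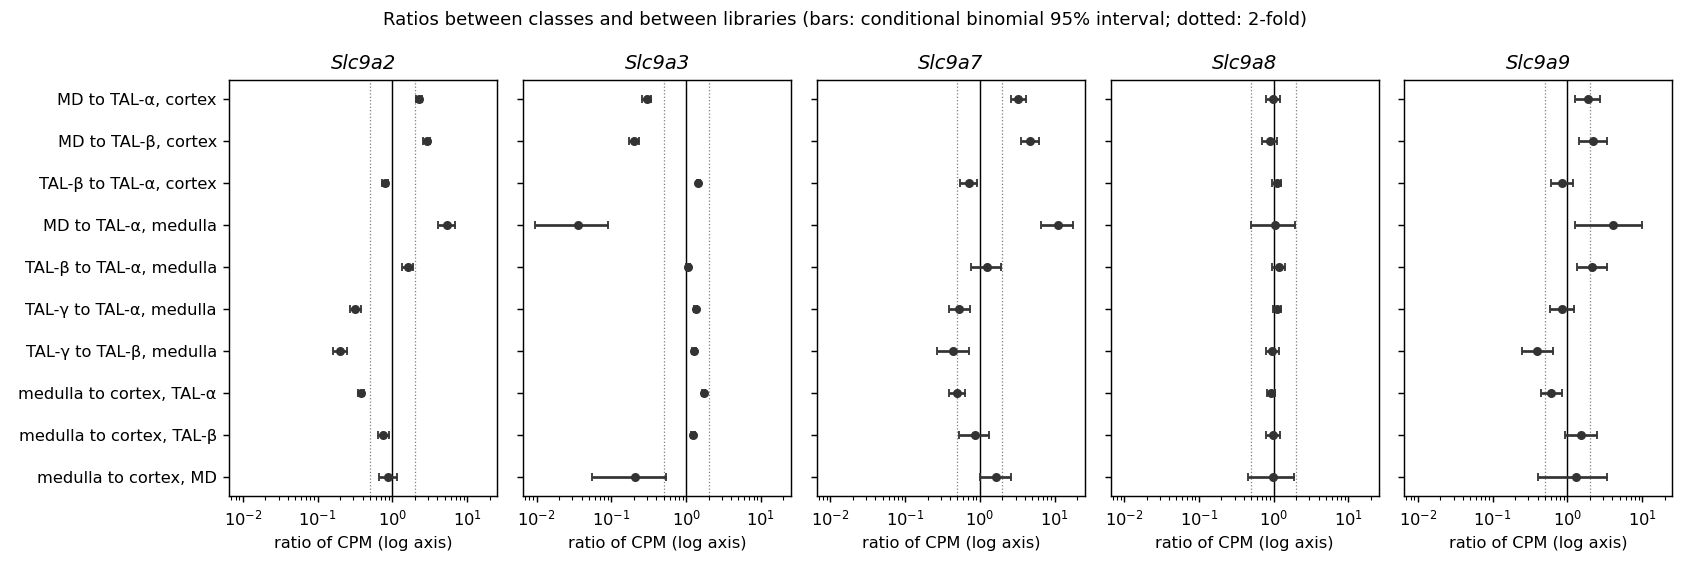
Ratios of CPM for the 5 exchanger genes with at least 20 counts in each pair of groups (x axes, log scale) in 10 comparisons (y axis), with conditional binomial 95% intervals; the solid line is 1 and the dotted lines are 2-fold. MD to TAL-α, with TAL-α nuclei of all positions, lies right of 2-fold for Slc9a2 and Slc9a7 and left of it for Slc9a3 in both libraries, and every interval of Slc9a8 crosses 1.

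Set beside all genes, the count of exchanger genes past 2-fold was as follows, each over the 5 of 6 with at least 20 counts in the pair. For MD to TAL-α in cortex 2 were higher and 1 lower, where 6.92% of all genes were higher and 6.42% lower, and for MD to TAL-β in cortex 3 were higher and 1 lower, against 6.78% and 7.52%. For MD to TAL-α in medulla 3 were higher and 1 lower, where 16.4% of all genes were higher and 25% lower. For TAL-β to TAL-α 0 passed in cortex, against 2.71% and 2.29%, and 1, Slc9a9, was higher in medulla, against 3.25% and 5.31%. The highest counts of exchanger genes past 2-fold were in comparisons with MD, and these genes went both ways. Within a library, the comparisons with MD also had the largest shares of all genes past 2-fold. The members and the class rule were chosen with earlier results of these data known, so the counts do not establish a trait of MD. These counts take TAL-α and TAL-β nuclei of all positions, to which MD was not matched. Over all 5 exchanger genes the ratios of MD to TAL-α ran from 0.296 to 3.28 in cortex and from 0.0353 to 11.0 in medulla. Their medians of 1.87 and 4.04 were both the ratio of Slc9a9, on 5 MD counts in medulla, where the median over all genes was 1.03 and 0.991.

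For TAL-γ in medulla 1 exchanger gene, Slc9a2, was lower than in TAL-α, against 1.35% of all genes higher and 2.98% lower, and 3 (Slc9a2, Slc9a7 and Slc9a9) were lower than in TAL-β, against 5.56% and 5.17%. Of these, Slc9a2 and Slc9a7 were not above background in TAL-γ. Slc9a7 was also no longer past 2-fold with TAL-β called from 1 Tmem52b count (0.682). Slc9a9 was no longer past it without the nucleus with the most counts in each class (0.570). For medulla to cortex 2 were lower in TAL-α, against 2.02% and 11%, 0 passed in TAL-β, against 1.27% and 12%, and 1, Slc9a3, was lower in MD, against 3.91% and 15.3%. That ratio of 0.205 was 0.677 (0.388 to 1.11) with MD called from 2 counts of Nos1 and Pappa2.

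Other genes of the family are set beside these. Of 4 other Slc9 genes (Slc9a5, Slc9b1, Slc9b2 and Slc9c1), 0 to 3 had at least 20 counts in a comparison. None (0) was higher by 2-fold and 1 was lower in 3 of the 10 comparisons, in each case Slc9c1, the gene of a sperm-type exchanger. Its ratio of medulla to cortex in TAL-α, 0.353 (0.204 to 0.590), was the only 1 of the 3 with an interval below 1. In that comparison 1 nucleus held 15 of the 53 cortical counts of Slc9c1. Slc9a5 (TAL-β to TAL-α in medulla, 5.34, 1.23 to 23.2; medulla to cortex in TAL-α, 0.327) and Slc9b1 (medulla to cortex in TAL-α, 0.154) also passed 2-fold, on fewer than 20 counts.

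Of 12 genes whose products bind or regulate the exchangers, Tesc was the one at least 2-fold higher in MD than in TAL-α in both libraries. In cortex 1 of 10 with at least 20 counts was higher and 0 lower, against 6.92% and 6.42% of all genes. In medulla 3 of 9 were higher (Tesc, Pdzd3 and Dpp4) and 4 lower, against 16.4% and 25% of all genes. Pdzd3 and Dpp4 had 1 and 3 counts in medullary MD. Tesc encodes tescalcin, a calcineurin B homologous protein that binds sodium-proton exchangers. Its level was 54.0 CPM in MD and 12.4 CPM in TAL-α of cortex (4.34-fold, 3.23 to 5.84), and 72.3 and 14.0 CPM in medulla (5.17-fold, 2.61 to 9.35); over TAL-β in cortex it was 3.36-fold higher (2.47 to 4.58). In MD of medulla Ezr, which encodes the linker ezrin, stood at 0.465 of TAL-α (0.247 to 0.798), and Ahcyl1, which encodes the exchanger regulator IRBIT, at 0.362 (0.165 to 0.689). These ratios rested on 13 and 9 MD counts. In cortex, with more counts, they were 0.588 (0.497 to 0.692) and 0.743 (0.633 to 0.869), not past 2-fold. Dpp4, whose peptidase binds NHE3, was 0.482 of TAL-β in cortical MD (0.343 to 0.664).

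Between the libraries 5 of the 11 partner genes with at least 20 counts were lower in medullary than in cortical TAL-α by 2-fold or more, and 0 higher, where 11% of all genes were lower and 2.02% higher. Pdzk1, a scaffold gene of the brush border, was at 24.7 against 120 CPM (ratio 0.205, 0.177 to 0.237), Pdzd3 at 0.246, Dpp4 at 0.197, Slc9a3r2 at 0.364 and the kinase gene Sgk1 at 0.344. In TAL-β 4 of 9 were lower too, Pdzk1 (0.221), Pdzd3 (0.137), Dpp4 (0.198) and Sgk1 (0.421), against 12% of all genes. In MD 4 of 8 were lower, against 15.3% of all genes. Of these, Pdzk1 (0.448) and Ahcyl1 (0.494) had intervals below 1, on 7 and 9 medullary counts. Pdzk1 and Dpp4 are also genes of proximal tubule, whose listed markers were higher in the cortex library, and the part of those transcripts was not tested. Slc9a3 itself had the opposite sign in TAL-α and TAL-β.

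Likeness of pattern was measured as Pearson's r of log2(CPM + 1) over the 8 groups, among 10983 genes with at least 200 counts in TAL nuclei. The groups share 2 libraries and differ in depth, so r is a description. Most like Slc9a2 were Tgfbr1 (0.993), Gm13052 (0.993) and Atp2b4 (0.992), most like Slc9a3 were Uqcrh (0.997), Gp2 (0.997) and Ccdc189 (0.995), and most like Slc9a7 were Itprid2 (0.997), Txndc16 (0.996) and Cttnbp2 (0.993). Atp2b4, a plasma membrane calcium pump gene, ranged from 5.63 CPM in medullary TAL-γ to 331 CPM in medullary MD, and Gp2, the gene of a membrane glycoprotein related to uromodulin, from 6.02 CPM in medullary MD to 197 CPM in medullary TAL-γ. For Slc9a8 the closest were Gm44200 (0.905), Irx5 (0.862) and Xpo6 (0.852), and for Slc9a9 Zfp763 (0.990), Ctsc (0.978) and Klhl12 (0.971). Slc9a4 had too few counts for this measure.

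Among the exchanger genes themselves, r was 0.916 between Slc9a2 and Slc9a7, 0.919 between Slc9a7 and Slc9a9 and 0.882 between Slc9a2 and Slc9a9. Slc9a3 ran against all 3, at -0.779 with Slc9a2, -0.960 with Slc9a7 and -0.856 with Slc9a9. Pairs with Slc9a8 lay between -0.261 and 0.317.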

How the data were processed

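Nuclei from 1 cortex and 1 medulla library were sequenced with a PIPseq 3′ kit, aligned by the authors to GRCm39 and deconvolved with PIPseeker. The authors deposited raw and filtered matrices of counts per gene and barcode; these come before the doublet removal, ambient RNA correction, normalization and integration that their methods describe (Seurat 4.4.0 per the submitters' notes). The annotation release and the use of strand are not given in the sources used here. The filtered matrices held 16457300 counts (cortex, median 2427 per barcode) and 20947211 counts (medulla, median 2430), and no further filter was set on barcodes. The deposited clusters and embeddings were not used.

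Counts of the TAL nuclei of each class and library were summed and divided by their total (CPM). Levels have exact Poisson, shares exact Clopper-Pearson and ratios conditional binomial 95% intervals; reads are not independent of amplification, so they cover counting error only. With 1 library per region no test across samples was possible. A gene entered the count of genes past a 2-fold ratio with at least 20 counts in the pair. The ratio and its interval were tested on Poisson counts simulated for whole classes. That setting holds no doublets and no single nuclei with many counts, so the test does not cover their effect. Doublets were kept; Scrublet marked 338 cortical barcodes (6.21%) and, with its automatic threshold, 2 medullary (0.0246%), where it did not work and the 406 highest scores (5%) were used in its place as an alternative. The members, the class rule and the lists (partners, markers, axis) were chosen with earlier results of these data known, and the axis and class markers come from the study's own lists on these libraries. Some genes of the family are not reported here. Named genes are all 6 members, the listed family and partner genes past 2-fold with an interval without 1, and the 3 genes most like each member with at least 200 counts. Python 3.11.15, numpy 2.4.6, scipy 1.17.1, pandas 2.3.3 and scanpy 1.11.5 were used. Alternatives changed the count minimums of the class rule, quality and depth filters, other cell types, doublets, the averaging and the depth.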

Additional observations from a re-analysis of the deposited data

Results flagged for a closer look

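The ratio of TAL-β to TAL-α for Slc9a2 had opposite directions in the 2 libraries. It was 0.798 in cortex (140 against 176 CPM) and 1.60 in medulla (106 against 66.6 CPM). The difference between the libraries was not tested, since there is 1 library per region. Within the 5 bins of the cortex to medulla axis the medullary ratio was 0.836 to 1.09, and within 4 bins the cortical ratio was 0.733 to 0.777. Medullary TAL-β and TAL-α nuclei were spread differently over the bins, with 143 of 571 and 312 of 3776 in the most cortical one.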

How the results depend on the processing

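No paired analysis was possible because each region had 1 library, and leaving out a replicate was not possible for the same reason. The 50 ratios of 5 genes in 10 comparisons were recomputed under 15 alternatives and 1 added after the data were seen, without the nucleus with the most counts; 751 of the 800 values moved by less than the counting interval, 49 moved further and 0 changed direction while called. For the 8 leading ratios, 14 of 128 moved further. Slc9a2 medulla to cortex in TAL-α (0.379) was 0.310 with TAL-γ called on Tmem207 alone, 0.335 without proximal tubule-marked nuclei, 0.329 without nuclei marked by any other cell type, 0.330 as a mean of nucleus CPM and 0.315 thinned. Slc9a3 medulla to cortex in TAL-α (1.72) was 1.81 with TAL-γ on Tmem207 alone. Slc9a3 MD to TAL-α in cortex (0.296) was 0.199, 0.192, 0.129, 0.133 and 0.0989 without proximal tubule-marked nuclei, without any other cell type, without Scrublet doublets, as a mean of nucleus CPM and thinned. Slc9a3 TAL-β to TAL-α in cortex (1.46) was 1.59, 1.65 and 1.58 without proximal tubule-marked nuclei, without any other cell type and as a mean of nucleus CPM. The cause was not tested. Depth limits Slc9a4 in all groups and each gene in medullary MD.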

Other observations

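Outside the TAL nuclei, Slc9a8 was higher in barcodes with proximal tubule markers than in any TAL class. Among barcodes with at most 2 Slc12a1 counts it stood at 321 CPM (271 to 377) in the 99 medullary and at 108 CPM (78.1 to 144) in the 88 cortical ones. The same barcodes had Slc9a3 at 156 CPM (122 to 197) in medulla and 195 CPM (155 to 243) in cortex. Slc9a9 had 21 counts, 51.3 CPM, in the cortical ones, of which 1 barcode held 10, and 0 in the medullary ones.

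Within TAL-β, 475 of 1493 cortical and 359 of 571 medullary nuclei also had at least 2 counts of Tmem207 and Gpc5, the TAL-γ minimum. These nuclei had less Slc9a2 than the rest of the class, 118 CPM (103 to 134) against 154 CPM (140 to 168) in cortex and 91.2 CPM (74.7 to 110) against 137 CPM (109 to 171) in medulla. Slc9a3 was 561 against 591 CPM in cortex and 726 against 719 CPM in medulla in the same nuclei.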
